A study of Homo sapiens with 16 samples.

Results

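The regions described here lie at 7 imprinted loci of the human genome, those of GRB10, MEST, SGCE with PEG10, PLAGL1, NNAT, GNAS, and DLK1 with MEG3. Chromatin immunoprecipitation followed by sequencing (ChIP-seq) was compared between HCT116, a colorectal carcinoma cell line, and DKO, a line known to derive from HCT116 by disruption of DNMT1 and DNMT3B, which encode DNA methyltransferases. Both lines were grown untreated in the same medium, and the labels name no clone, passage or separate culture. Each line gave 1 library for each of 7 targets, so 14 libraries enter the comparisons, and the 2 input libraries were not analysed here. The targets were the insulator protein CTCF, the cohesin subunits RAD21 and SMC1, acetylated lysine 27 of histone H3 (H3K27Ac), RNA polymerase II phosphorylated on serine 5 (Pol2Ser5) or serine 2 (Pol2Ser2) of its tail, and total RNA polymerase II (TotalRNAPol2). The antibody label of the TotalRNAPol2 libraries names the Pol2Ser5 antibody, so what that pair of libraries recovered is uncertain, and it is called by its title.

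Members were chosen by position: every region of the authors' 7 comparison tables that overlaps 1 of the 7 windows by at least 1 bp. In hg19 the windows are chr7:50650000-50870000 for GRB10, chr7:130120000-130150000 for MEST and chr7:94210000-94302000 for SGCE and PEG10. PLAGL1 was taken as chr6:144255000-144390000, NNAT as chr20:36145000-36156000, GNAS as chr20:57410000-57490000, and DLK1 with MEG3 as chr14:101190000-101330000. The loci were chosen by gene, with earlier M values of these tables known, so the values below are a description and carry no test. They hold 667 of the 1255311 regions in the 7 tables, and 10 of these cross a window edge. GRB10 has 186 regions, GNAS 180, DLK1-MEG3 140, PLAGL1 68, MEST 33, SGCE-PEG10 30 and NNAT 30. No gene annotation of hg19 was used here, so regions are placed by coordinate, were not assigned to exons, introns or start sites, and the cell type was not checked against its marker genes.

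An imprinted gene is expressed mainly from the copy inherited from one parent. The choice is set by imprinting control regions, CG-rich stretches whose cytosines are methylated on one parental copy only, and the DNA methyltransferases keep that methylation through cell division. CTCF binds many of its sites less well when certain cytosines in them are methylated, and it halts cohesin, a ring-shaped complex that extrudes chromatin loops, so that both are often found at the same places. The zinc-finger protein ZFP57 recognises a methylated hexamer in imprinting control regions. H3K27Ac marks active promoters and enhancers, serine 5 phosphorylation marks polymerase near the start of genes, and serine 2 phosphorylation marks polymerase elongating through them.

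The promoter sequences of the member genes varied widely in their number of CG dinucleotides. RefSeq promoter sequence in GRCh38.p14 was found for 5 of the 9 genes (GRB10, MEST, PLAGL1, GNAS and MEG3), with 24 start sites in all, each cut to 250 bases before and 30 bases after the start. These windows held 2 to 46 CG dinucleotides, against a median of 13 over 35116 promoters. A CTCF core motif, CCANNAGNNGGC on either strand, lay in 1 of the 24 windows and in 2.27% of all promoters. The ZFP57 hexamer TGCCGC, on either strand, lay in 8 of the 24 windows and in 15.1% of all promoters. The 3 MEG3 windows, whose starts lie 0.01 and 0.014 kb apart, hold the same hexamer. Windows of a gene can thus overlap, and the 24 are not separate units to set against that share. The 2 motifs do not overlap in any window printed. Each sequence below stands for a locus whose values follow, is written 5′ to 3′ on the strand of its gene, and has motif matches in capitals. The printed starts are examples, and other starts of GRB10 and PLAGL1 held as few as 2 CG dinucleotides. Matches are a description of letters and not of binding, and no position was carried between GRCh38 and hg19.
GNAS, chr20:58852731-58853010, plus strand, 18 CG dinucleotides, the only window with the CTCF core: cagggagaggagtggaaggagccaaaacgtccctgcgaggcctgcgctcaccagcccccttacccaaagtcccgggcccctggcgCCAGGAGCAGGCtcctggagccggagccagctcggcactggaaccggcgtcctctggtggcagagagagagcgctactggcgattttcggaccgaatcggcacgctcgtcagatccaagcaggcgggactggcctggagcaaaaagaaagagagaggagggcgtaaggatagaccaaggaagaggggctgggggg
GRB10, chr7:50782867-50783146, minus strand, 21 CG dinucleotides and neither motif: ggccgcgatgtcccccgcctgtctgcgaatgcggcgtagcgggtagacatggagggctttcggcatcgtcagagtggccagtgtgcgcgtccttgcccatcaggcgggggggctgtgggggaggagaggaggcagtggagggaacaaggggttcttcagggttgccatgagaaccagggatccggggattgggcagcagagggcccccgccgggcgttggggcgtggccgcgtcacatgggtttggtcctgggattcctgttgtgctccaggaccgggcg
MEG3, chr14:100825858-100826137, plus strand, 16 CG dinucleotides, 1 ZFP57 hexamer on the opposite strand: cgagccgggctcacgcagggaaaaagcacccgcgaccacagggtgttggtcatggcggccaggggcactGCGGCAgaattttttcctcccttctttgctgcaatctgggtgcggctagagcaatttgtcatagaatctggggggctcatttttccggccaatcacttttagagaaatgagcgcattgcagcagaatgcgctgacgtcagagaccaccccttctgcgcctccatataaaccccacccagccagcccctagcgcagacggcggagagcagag
MEST, chr7:130491835-130492114, plus strand, 23 CG dinucleotides, a pair of overlapping ZFP57 hexamers on opposite strands: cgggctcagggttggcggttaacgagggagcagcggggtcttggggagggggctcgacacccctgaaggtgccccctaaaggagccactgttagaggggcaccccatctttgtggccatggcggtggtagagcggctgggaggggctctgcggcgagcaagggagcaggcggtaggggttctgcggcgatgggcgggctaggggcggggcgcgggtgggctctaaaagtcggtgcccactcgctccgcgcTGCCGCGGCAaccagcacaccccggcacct
PLAGL1, chr6:144008230-144008509, minus strand, 36 CG dinucleotides, 2 ZFP57 hexamers on opposite strands: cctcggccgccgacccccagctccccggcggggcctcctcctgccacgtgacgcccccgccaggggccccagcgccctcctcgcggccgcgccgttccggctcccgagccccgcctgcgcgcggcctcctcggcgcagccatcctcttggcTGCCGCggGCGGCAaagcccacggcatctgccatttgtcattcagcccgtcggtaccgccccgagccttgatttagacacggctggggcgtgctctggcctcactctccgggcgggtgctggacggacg

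Each table row gives a normalized read density for both lines and M, the log2 ratio of DKO over HCT116 after the authors' normalization. The whole reads behind each row could be recovered, and they are printed below as reads in DKO and in HCT116. Reads were counted in a window of 1 kb for CTCF, RAD21 and SMC1 and of 2 kb for the other targets, so close neighbours share reads. A region was counted as higher in a line when its densities were at least 2-fold apart. The 95% intervals printed with M are exact (Clopper-Pearson), rest on the recovered reads alone and cover counting error only, and no difference has a replicate check. Median reads per member region ran from 22 for Pol2Ser2 to 71 for TotalRNAPol2 in DKO, and from 19 for Pol2Ser5 to 109 for H3K27Ac in HCT116.

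CTCF was the target whose members most often stood higher in DKO. Of its 79 regions, 23 (29.1%) passed 2-fold toward DKO, against 20.1% of all CTCF regions, and 4 (5.06%) were higher in HCT116, against 6.33%. RAD21 had 19 of 105 regions (18.1%) higher in DKO, where the whole table had 13.7%, and 4 (3.81%) higher in HCT116, where it had 8.70%. SMC1 had 9 of 91 (9.89%) higher in DKO, close to the 9.36% of its table, and 1 (1.10%) higher in HCT116, against 4.67%.

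For the histone mark the balance was set by 1 locus. H3K27Ac had 4 of 95 regions (4.21%) higher in DKO, below the 11.0% of its table, and 13 (13.7%) higher in HCT116, against 10.4%. DLK1-MEG3 supplied 57 of these regions and 9 of the 13 higher in HCT116. The other 6 loci had 4 of 38 (10.5%) in each direction, near the shares of the table. The median M was -0.49 over all members and -0.05 over the table. Pol2Ser5 was split, with 14 of 72 regions (19.4%) higher in DKO against 14.9% of the table, and 15 (20.8%) higher in HCT116 against 21.0%. Pol2Ser2 had 25 of 143 (17.5%) higher in DKO against 18.6%, and 11 (7.69%) higher in HCT116 against 10.9%. TotalRNAPol2 had 21 of 82 (25.6%) higher in DKO against 20.7%, and 2 (2.44%) higher in HCT116 against 10.2%. Single loci weighed on the polymerase counts as well. GNAS supplied 10 of the 14 Pol2Ser5, 14 of the 25 Pol2Ser2 and 12 of the 21 TotalRNAPol2 regions higher in DKO. GRB10 supplied 9 of the 15 Pol2Ser5 and 9 of the 11 Pol2Ser2 regions higher in HCT116.

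These counts moved with the scale chosen. Shares of the whole tables under the other scales are not given here. The counts therefore show how the members moved and not how they compare with the table. With M recentred on the median of each table, CTCF had 13 regions higher in DKO and 6 higher in HCT116, and with constant centring, which scales the reads by a single factor per table, it had 26 and 1. Recentred by chromosome, RAD21 had 12 and 7, and SMC1 had 9 and 3. For Pol2Ser2 constant centring gave 18 and 24, and for TotalRNAPol2 14 and 13. For the last 2 targets the balance of directions in these loci thus depended on the scaling, and recentring alone gave 12 and 6 for TotalRNAPol2 and 19 and 17 for Pol2Ser2. A further cut kept regions whose higher density of the 2 lines was at least the median of their table. A region high in only 1 line can pass this cut through that line, and close neighbours share reads. The shares after the cut are therefore a description only. Among such TotalRNAPol2 regions, 19 of 35 (54.3%) were higher in DKO, against 29.3% of such regions in the table, and GNAS held 17 of the 35. The same cut gave 10 of 25 (40.0%) against 21.1% for Pol2Ser5, 17 of 58 (29.3%) against 21.7% for Pol2Ser2, and 8 of 37 (21.6%) against 11.4% for SMC1. RAD21 had 10 of 55 (18.2%) against 13.1%, CTCF 9 of 43 (20.9%) against 22.2%, and H3K27Ac 3 of 48 (6.25%) against 13.0%.

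**Figure D1:**
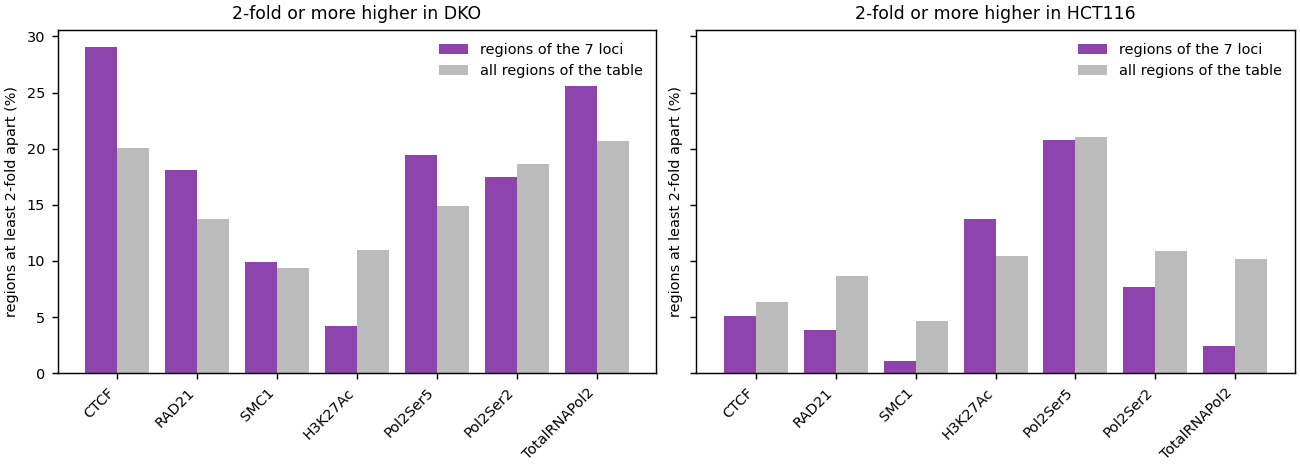
Percent of regions at least 2-fold higher in DKO (left) or in HCT116 (right) for each target, in the 7 imprinted loci (purple) and in the whole table (grey). The CTCF bar of the loci stands at 29.1% against 20.1% on the left, and the H3K27Ac bar at 4.21% against 11.0%.

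**Figure D2:**
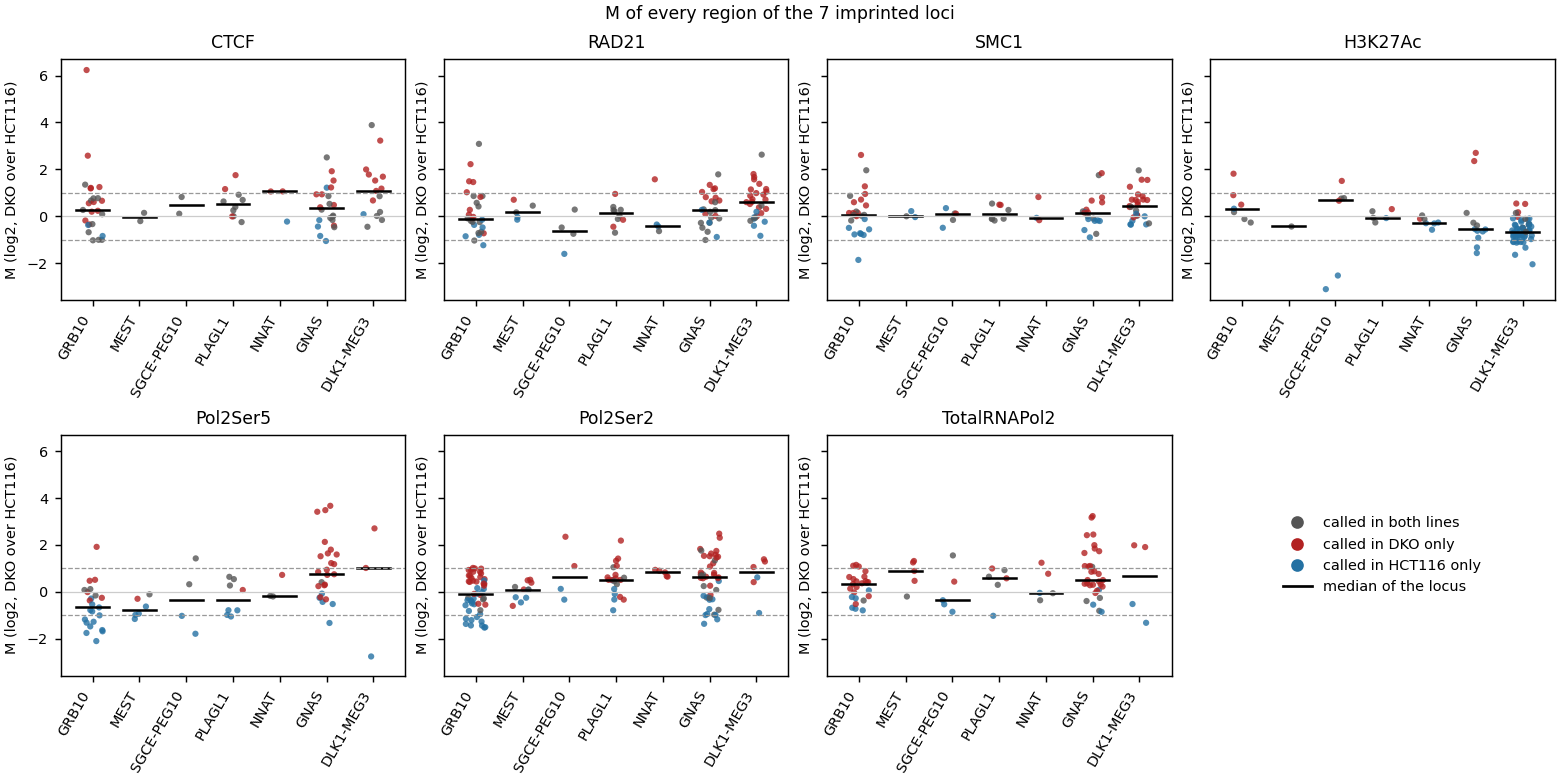
M, the log2 ratio of DKO over HCT116 density, for each of the 667 regions, by target and locus, with the 2-fold limits marked. The highest CTCF points belong to GRB10 (6.24), DLK1-MEG3 (3.89 and 3.23) and GNAS (2.51), while MEST has no CTCF region past 2-fold.

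GRB10 encodes an adaptor protein that binds the insulin and IGF1 receptors and restrains their signalling, and it is transcribed from the minus strand. Its locus held the widest gap between the lines: at chr7:50848706-50850994 CTCF gave 340 reads in DKO and 3 in HCT116. The normalized densities were 321 and 4.25, M was 6.24 (95% interval 5.09 to 8.93), and the authors called this region in DKO only. By M it ranked 4 of 171693 CTCF regions. Cohesin was high at the same place in DKO. RAD21 at chr7:50848759-50851142 gave 240 reads in DKO and 22 in HCT116, an M of 3.09 (2.51 to 3.85). SMC1 at chr7:50849715-50849990 gave 105 and 13 reads (M 2.61, 1.87 to 3.66), and at chr7:50850089-50850960 it gave 125 and 25 (M 1.96, 1.38 to 2.69). CTCF and both cohesin subunits thus stood higher in DKO, though only CTCF was near 0 in HCT116.

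Marks of transcription at that site differed less. TotalRNAPol2 at chr7:50850302-50851032 gave 83 reads in DKO and 34 in HCT116, an M of 1.11 (0.54 to 1.76) and 0.67 at the lowest under other centrings. H3K27Ac at chr7:50850454-50850681 gave 52 and 34 reads, an M of 0.90 (0.26 to 1.58). Pol2Ser5 at chr7:50850174-50850874 gave 50 and 28 reads, an M of 0.08 (-0.60 to 0.82), and that interval includes 0. The 3 Pol2Ser2 regions overlapping the CTCF region were weak and differed in direction. Reads were 13 and 32 at chr7:50849016-50849312 (M -0.42, -1.54 to 0.49), 24 and 29 at chr7:50850178-50850391 (M 0.44, -0.42 to 1.26), and 22 and 19 at chr7:50850859-50851028 (M 1.02, 0.07 to 1.99). The sharp CTCF difference therefore had no counterpart of similar size in polymerase or acetylation.

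The densest serine 5 region of the GRB10 window lay 10.8 kb from the CTCF region, the densest acetylated region overlapped that serine 5 region, and both were close in the 2 lines. H3K27Ac at chr7:50860786-50861199 gave 216 DKO reads and 261 HCT116 reads (M -0.12, -0.39 to 0.14). Pol2Ser5 at chr7:50860088-50861221 gave 210 and 133 reads (M -0.16, -0.48 to 0.17). TotalRNAPol2 gave 133 and 76 reads at chr7:50860951-50861220 (M 0.36, -0.05 to 0.80), but 125 and 45 at the neighbouring chr7:50861320-50861875 (M 1.15, 0.67 to 1.69, or 0.86 at the lowest under other centrings). RAD21 was lower there in DKO, with 27 and 48 reads at chr7:50860818-50861207 (M -1.24, -2.00 to -0.55). Within GRCh38, 2 RefSeq starts of GRB10 lie 9.98 kb apart, and the printed sequence is the more downstream of them, but no hg19 region was assigned to either.

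A CTCF region elsewhere in the window serves as a comparison within the same libraries. At chr7:50699284-50701814, 149.3 kb from the DKO-high region, CTCF gave 490 DKO reads and 453 HCT116 reads (M 0.27, 0.08 to 0.45). RAD21 there had an M of -0.25 (-0.58 to 0.07) and SMC1 of 0.02 (-0.37 to 0.42). Of the 25 CTCF regions at GRB10, 6 were higher in DKO and 3 in HCT116, and those 3 sat just past the limit at M -1.03, -1.01 and -1.01. Their reads were 54 and 105, 60 and 116, and 95 and 191. Within 2 Mb, 22.3% of 130 flanking CTCF regions were higher in DKO and 6.92% in HCT116, with a median M of 0.25. The 25 regions of the window had a median M of 0.27, close to that of the flanks. Flanking CTCF regions called in both lines had a median M of -0.13, from 56 regions.

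Over the whole GRB10 window Pol2Ser5 and Pol2Ser2 had more regions higher in HCT116 than in DKO. Of 23 Pol2Ser5 regions 9 were higher in HCT116 and 1 in DKO, with a median M of -0.67. Each of those 9 had at most 20 reads in DKO and 30 in HCT116, and the flanks leaned the same way, with 58.1% of 43 regions higher in HCT116. Of 51 Pol2Ser2 regions 9 were higher in HCT116 and 1 in DKO, where the 47 flanking regions had 10.6% and 25.5%. Of 25 TotalRNAPol2 regions 3 were higher in DKO and none in HCT116, where the 27 flanking regions had 14.8% and 7.41%. The median M of the 25 regions was 0.33, near the 0.27 of the whole table. At the far edge of the window, H3K27Ac at chr7:50869914-50870264 gave 101 and 34 reads (M 1.81, 1.27 to 2.45), while CTCF overlapping it gave 116 and 107 (M 0.08, -0.31 to 0.48).

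**Figure D3:**
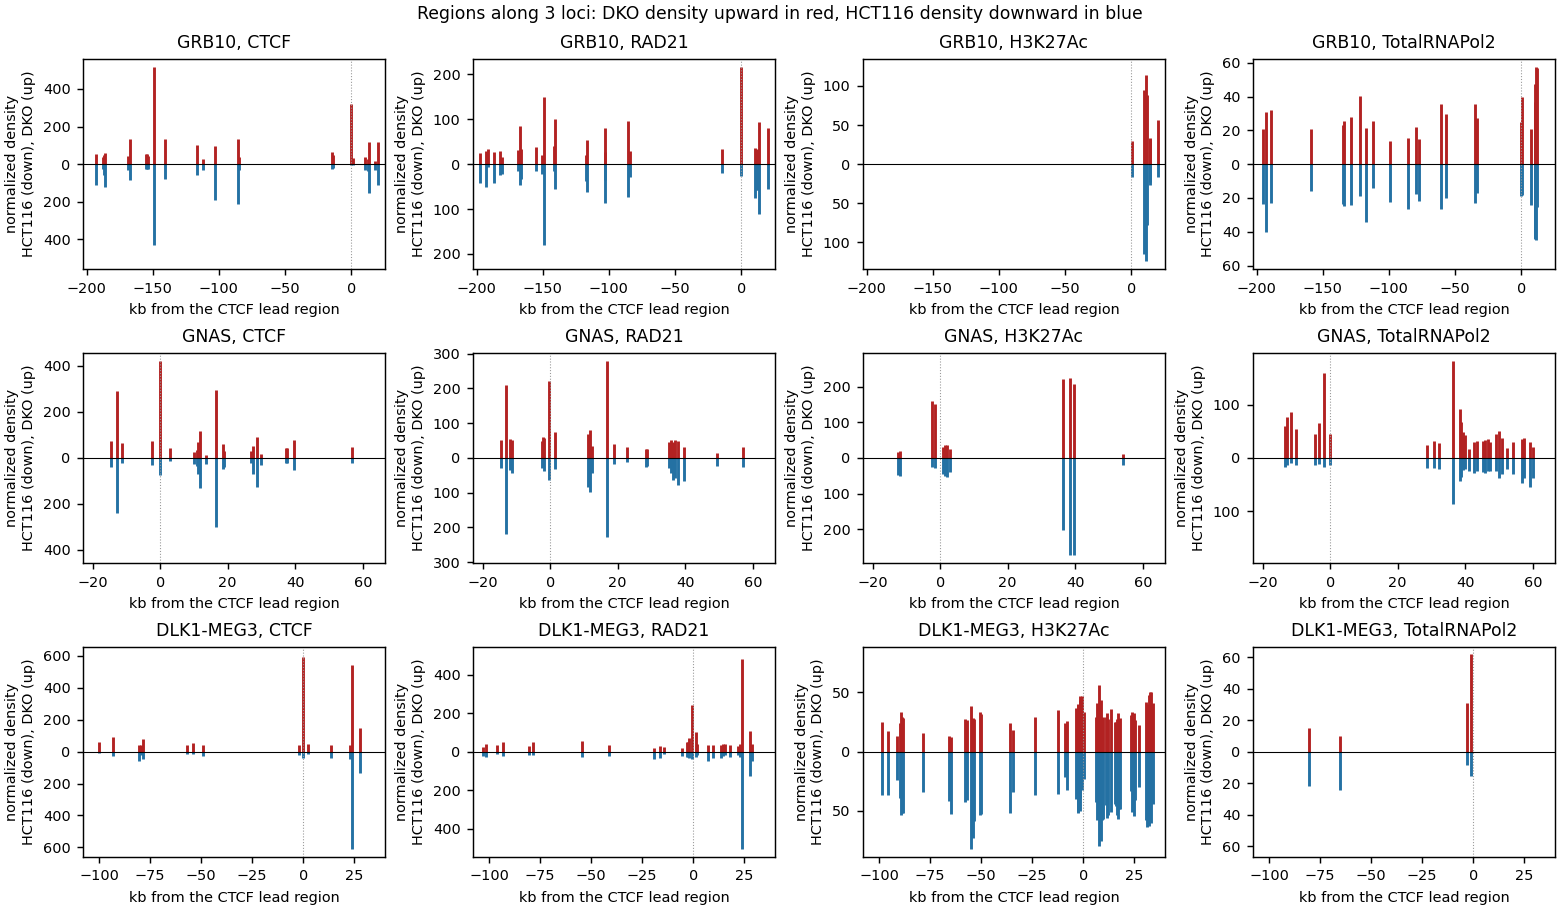
Normalized density of each region along the GRB10, GNAS and DLK1-MEG3 windows, DKO upward in red and HCT116 downward in blue, against kb from the CTCF region of largest M among the dense ones. At 0 kb the DKO bar of CTCF reaches 321 at GRB10 with 4.25 below it, whereas the CTCF region 149.3 kb away has bars of similar length in both directions.

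DLK1 encodes a membrane protein related to the Notch ligands and is expressed from the paternal copy, and MEG3 is a long noncoding RNA expressed from the maternal copy. At chr14:101292013-101295922 CTCF gave 588 reads in DKO and 39 in HCT116, an M of 3.89 (3.45 to 4.43). It ranked 535 by M among all CTCF regions, and unlike the GRB10 region it was called in both lines. RAD21 at chr14:101292337-101294810 gave 264 and 35 reads (M 2.63, 2.15 to 3.21). SMC1 at chr14:101292364-101294730 gave 115 and 23 reads (M 1.96, 1.35 to 2.72). Both cohesin subunits were therefore higher in DKO at the CTCF region, as at GRB10.

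Here the polymerase differed as well. Pol2Ser5 at chr14:101292142-101293263 gave 175 DKO reads and 15 HCT116 reads (M 2.70, 2.03 to 3.66). TotalRNAPol2 at chr14:101292274-101293061 gave 132 and 28 reads (M 1.98, 1.43 to 2.67). Further along, Pol2Ser2 at chr14:101301048-101301408 gave 37 and 22 reads (M 1.39, 0.61 to 2.24). H3K27Ac at chr14:101292434-101292796 differed little, with 79 and 85 reads (M 0.14, -0.32 to 0.60). Thus all 3 polymerase targets had a region past 2-fold in DKO in this stretch of the locus. No Pol2Ser2 region overlapped the CTCF region, and the interval of acetylation beside it included 0. Over the whole window Pol2Ser5 had 2 of 3 regions higher in DKO and 1 in HCT116, at M -2.76. TotalRNAPol2 had 2 of 4 higher in DKO and 1 in HCT116, chr14:101228465-101228673, with 18 and 50 reads (M -1.32, -2.24 to -0.57). Pol2Ser2 had 3 of 6 higher in DKO. In the flanks 17.7%, 24.4% and 21.4% were higher in DKO, in the same order.

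The strongest CTCF region of the DLK1-MEG3 window lay 24.0 kb away and was close in both lines. At chr14:101316985-101318923 CTCF gave 512 DKO reads and 648 HCT116 reads (M -0.16, -0.33 to 0.01). RAD21 gave 473 and 512 (M -0.07, -0.25 to 0.11), and SMC1 344 and 331 (M -0.31, -0.53 to -0.08). Of all 15 CTCF regions of the window, 8 were higher in DKO and none was higher in HCT116. Among them chr14:101193285-101194070 gave 66 and 5 reads (M 3.23, 2.17 to 5.14), and chr14:101200365-101200948 gave 97 and 25 (M 1.78, 1.17 to 2.52). In the 2 Mb flanks 27.7% of 585 CTCF regions were higher in DKO.

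H3K27Ac formed a chain of 57 regions across DLK1-MEG3, with 9 higher in HCT116 and none in DKO. Their median M was -0.67, while all 939 flanking regions had a median of -0.05, and the 318 of them called in both lines had 0.03. The regions fill only 22 separate counting windows, so neighbours repeat the same reads. The authors called 48 of the 57 in HCT116 only, and their median M was -0.73, against -0.48 for all 77226 such H3K27Ac regions. The 2 clearest were chr14:101228659-101229321 with 22 DKO reads and 115 HCT116 reads (M -2.05, -2.83 to -1.44), and chr14:101238362-101239496 with 70 and 176 (M -1.10, -1.54 to -0.71). The count of 9 regions stands beside 10.4% of the H3K27Ac table and 3.62% of 939 flanking regions higher in HCT116.

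GNAS is a locus with several alternative first exons, among them those of the maternally expressed NESP55, the paternally expressed XLas and A/B transcripts and an antisense RNA, and the stimulatory G protein alpha subunit, which both copies express in most tissues. Its regions are described here in groups along the window, by their distance from the window start at 57410000 and not by exon. The group limits were not part of the naming rule, and the stretch from 25 to 45 kb is in no group. Counts per group therefore depend on where the limits were put, and close neighbours within a group share reads. In the first group, 0 to 12 kb in, polymerase stood far higher in DKO. TotalRNAPol2 at chr20:57415649-57417225 gave 182 DKO reads and 17 HCT116 reads (M 3.17, 2.52 to 4.05), and 4 of 4 regions of the group were past 2-fold. Pol2Ser2 at chr20:57414550-57417257 gave 111 and 25 reads (M 2.48, 1.89 to 3.21), and Pol2Ser5 had 3 of 4 regions past 2-fold. Elongating and total polymerase were thus both higher in DKO over the same stretch.

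Acetylation in that first group went the other way. H3K27Ac gave 29 reads in DKO and 107 in HCT116 at chr20:57415159-57415525 (M -1.57, -2.25 to -1.01), and 35 and 108 at chr20:57415687-57416209 (M -1.33, -1.95 to -0.80). CTCF at chr20:57414035-57416291 was close in the 2 lines, with 282 and 245 reads (M 0.28, 0.03 to 0.53). A smaller CTCF region beside it, chr20:57416404-57416863, gave 67 and 20 (M 1.52, 0.83 to 2.37).

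In the second group, 12 to 25 kb in, each of the 7 targets had a region past 2-fold in DKO. For SMC1 this was 1 of 3 regions, for H3K27Ac 2 of 6, and for Pol2Ser2 its single region. CTCF at chr20:57425765-57430170 gave 418 DKO reads and 74 HCT116 reads (M 2.51, 2.16 to 2.90). RAD21 at chr20:57426423-57428685 gave 239 and 59 (M 1.78, 1.39 to 2.24), and SMC1 at chr20:57427177-57428199 gave 198 and 46 (M 1.75, 1.31 to 2.27). CTCF and both cohesin subunits were therefore past 2-fold together, as at GRB10 and DLK1-MEG3.

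H3K27Ac was also higher in DKO, with 298 and 52 reads at chr20:57425016-57426101 (M 2.70, 2.30 to 3.18) and 279 and 62 at chr20:57426200-57426682 (M 2.35, 1.97 to 2.79). Pol2Ser5 at chr20:57425213-57426579 gave 324 and 14 reads (M 3.67, 3.0 to 4.65), and 6 of 6 regions of the group were past 2-fold. TotalRNAPol2 at chr20:57425354-57427131 gave 370 and 28 reads (M 3.23, 2.72 to 3.89), with 4 of 4 past 2-fold. Pol2Ser2 at chr20:57425585-57426309 gave 32 and 15 reads (M 1.83, 0.95 to 2.87). Both of these overlap the CTCF region, and the other 4 H3K27Ac regions of the group had M from -0.65 to -0.55, as at chr20:57429052-57429599 with 63 and 111 reads (M -0.57, -1.05 to -0.12).

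Between these groups and the main promoter-like group lay a CTCF region that was close in both lines. At chr20:57442873-57446237 CTCF gave 284 DKO reads and 307 HCT116 reads (M -0.02, -0.26 to 0.22), and RAD21 at chr20:57443454-57446400 gave 287 and 222 (M 0.29, 0.04 to 0.55). SMC1 was uneven there, with 101 and 22 reads at chr20:57443424-57444270 (M 1.84, 1.21 to 2.62) and 183 and 125 at chr20:57444421-57446221 (M 0.20, -0.13 to 0.55).

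The third group, 45 to 60 kb in and 38.1 kb from the second by its densest polymerase region, held the densest acetylation, serine 5 and total polymerase of the window in HCT116. H3K27Ac was less than 2-fold apart, with 427 and 416 reads at chr20:57462462-57466227 (M 0.14, -0.06 to 0.34) and 435 and 561 at its densest region, chr20:57466407-57466607 (M -0.28, -0.46 to -0.10). Pol2Ser5 at chr20:57462788-57468092 gave 640 and 265 reads (M 0.41, 0.20 to 0.62). TotalRNAPol2 at chr20:57462477-57466175 gave 490 and 129 reads (M 1.07, 0.79 to 1.37), or 0.64 at the lowest under other centrings. Pol2Ser2 was higher in DKO at 8 of 12 regions, with a median M of 1.42. Past 60 kb this ended: Pol2Ser2 had 2 regions higher in DKO and 2 in HCT116 among 25, with a median of -0.25.

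The surroundings of GNAS also leaned to DKO, which stands beside every count at this locus. In its 2 Mb flanks 35.3% of 215 TotalRNAPol2 regions, 33.7% of 312 Pol2Ser2 regions, 31.2% of 189 Pol2Ser5 regions and 28.3% of 424 CTCF regions were higher in DKO. The whole GNAS window had 12 of 32, 14 of 45, 10 of 25 and 5 of 22 regions higher in DKO, in the same order of targets. Higher in HCT116 were 0, 2, 1 and 1 of them. The median M of flanking regions called in both lines was 0.44 for Pol2Ser5 and 0.12 for CTCF. Whether the lines differ in the number of DNA copies at these loci was not tested.

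SGCE encodes epsilon-sarcoglycan, a membrane protein whose loss causes a myoclonus dystonia, and PEG10 is a gene derived from a retrotransposon. The 2 are paternally expressed and are transcribed away from each other from one shared promoter. A single stretch near chr7:94284712-94287491 held the strongest region of each target. Polymerase was past 2-fold higher in DKO: Pol2Ser5 at chr7:94284637-94287493 gave 260 DKO reads and 55 HCT116 reads (M 1.42, 1.02 to 1.89), and TotalRNAPol2 at chr7:94284512-94287464 gave 252 and 59 (M 1.55, 1.16 to 2.00). H3K27Ac was higher by less, with 305 and 200 reads at chr7:94284160-94285512 (M 0.75, 0.49 to 1.02). CTCF gave 311 and 184 reads (M 0.82, 0.56 to 1.09).

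Cohesin at the SGCE-PEG10 stretch did not follow CTCF. RAD21 at chr7:94284536-94287527 gave 51 DKO reads and 68 HCT116 reads (M -0.75, -1.31 to -0.21), and SMC1 at chr7:94284311-94287024 gave 151 and 110 (M 0.12, -0.24 to 0.49). At the other end of the window H3K27Ac was higher in HCT116, with 8 and 97 reads at chr7:94213419-94214334 (M -3.11, -4.52 to -2.23) and 10 and 79 at chr7:94212801-94213286 (M -2.53, -3.77 to -1.70). Those were the lowest M values of any H3K27Ac region in the 7 loci.

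PLAGL1 encodes a zinc-finger transcription factor that can halt the cell cycle, and it shares its imprinted promoter region with the noncoding HYMAI. Its window had 2 polymerase-rich places 55.8 kb apart, and both were moderately higher in DKO. At the first, Pol2Ser5 at chr6:144328715-144330062 gave 568 DKO reads and 216 HCT116 reads (M 0.54, 0.31 to 0.78), and TotalRNAPol2 at chr6:144328166-144330241 gave 406 and 145 (M 0.64, 0.37 to 0.93). Pol2Ser2 within it gave 38 and 22 reads at chr6:144329082-144329352 (M 1.42, 0.65 to 2.27). CTCF there was weak, with 81 and 39 reads at chr6:144328901-144329503 (M 0.92, 0.37 to 1.52), and H3K27Ac gave 319 and 301 (M 0.21, -0.02 to 0.44).

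At the second place TotalRNAPol2 gave 316 and 102 reads at chr6:144384741-144385954 (M 0.92, 0.61 to 1.27), and Pol2Ser5 gave 386 and 179 at chr6:144384419-144385938 (M 0.27, 0.01 to 0.54). CTCF there did not differ beyond counting error, with 162 and 164 reads (M -0.00, -0.32 to 0.32). RAD21 at chr6:144384807-144385618 was lower in DKO, with 72 and 97 reads (M -0.70, -1.17 to -0.25). SMC1 overlapping it gave 66 and 60 (M -0.18, -0.71 to 0.35). Over the CTCF region of the first place, RAD21 gave 84 and 67 reads (M 0.02, -0.45 to 0.51) and SMC1 75 and 41 (M 0.54, -0.01 to 1.14). The strongest CTCF region of the window, chr6:144260368-144264734, gave 455 and 423 (M 0.25, 0.05 to 0.44). Over all flanking regions PLAGL1 leaned to HCT116, with 46.3% of 136 TotalRNAPol2 regions and 64.1% of 128 Pol2Ser5 regions higher there. Flanking regions called in both lines had a median M of -0.02 for TotalRNAPol2, from 26, and -0.12 for Pol2Ser5, from 21. In the window itself the strongest polymerase regions had M above 0. All its 8 Pol2Ser5 regions had a median M of -0.36, and all its 6 TotalRNAPol2 regions had 0.61.

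**Figure D4:**
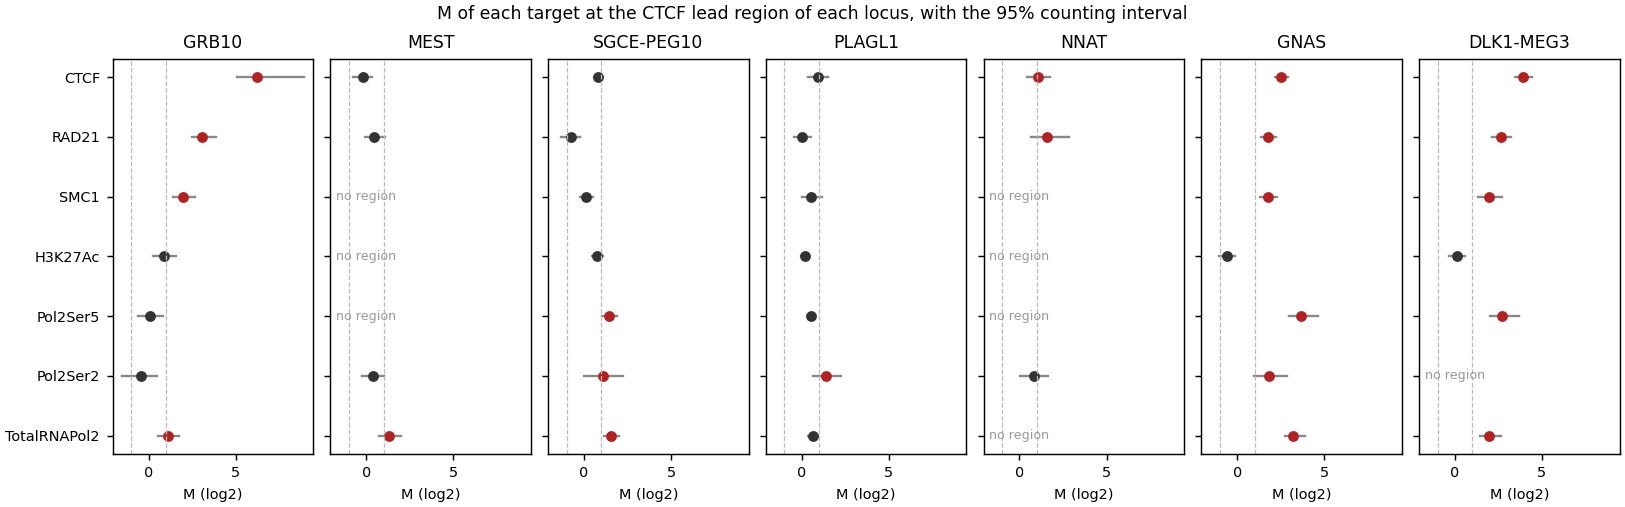
M with its 95% counting interval for 1 region per target at each locus: the CTCF region with the largest size of M among dense regions and, for each other target, the region that overlaps it longest. CTCF, RAD21 and SMC1 lie above 1 at GRB10, GNAS and DLK1-MEG3; the GNAS H3K27Ac point is the region at -0.57, and the acetylated region at 2.70 overlaps the same CTCF region over a shorter length.

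MEST encodes a hydrolase-like protein expressed from the paternal copy. Its CTCF regions were close in both lines, with 398 reads in DKO and 395 in HCT116 at chr7:130125386-130126819 (M 0.14, -0.06 to 0.35) and 57 and 61 at chr7:130130568-130131161 (M -0.21, -0.76 to 0.33). RAD21 (M 0.16, -0.16 to 0.49), SMC1 (M -0.00, -0.39 to 0.39) and Pol2Ser5 (M -0.11, -0.45 to 0.25) at the first place also had intervals that include 0. H3K27Ac at chr7:130125401-130127995 was somewhat lower in DKO, with 267 and 392 reads (M -0.43, -0.66 to -0.20). The densest TotalRNAPol2 region of the window lay at this first place, chr7:130125944-130127059. It gave 235 and 162 reads (M -0.20, -0.49 to 0.10), and that interval includes 0. TotalRNAPol2 was higher in DKO near the second CTCF region, with 83 and 30 reads at chr7:130130775-130131193 (M 1.31, 0.73 to 2.00) and 97 and 35 at chr7:130132135-130132356 (M 1.25, 0.71 to 1.88). The first of these had an M of 0.84 with constant centring, and none of the 11 Pol2Ser2 regions passed 2-fold.

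NNAT encodes a small membrane proteolipid of the developing brain, expressed from the paternal copy, and lies within an intron of BLCAP. Its window held weak CTCF regions called in DKO only, with 66 reads in DKO and 28 in HCT116 at chr20:36147947-36148315 (M 1.05, 0.43 to 1.78) and 49 and 20 at chr20:36148672-36148903 (M 1.06, 0.32 to 1.93). The first was below 2-fold under 3 of the 4 other centrings, at 0.56 at the lowest. RAD21 at chr20:36148051-36148301 gave 46 and 10 reads (M 1.57, 0.67 to 2.83). TotalRNAPol2 at chr20:36149576-36149792 gave 78 and 30 reads (M 1.24, 0.64 to 1.93), or 0.75 at the lowest.

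The densest H3K27Ac, Pol2Ser5, TotalRNAPol2 and RAD21 regions of the NNAT window crossed its edge and were less than 2-fold apart. H3K27Ac at chr20:36154728-36158372 gave 891 DKO reads and 992 HCT116 reads (M -0.12, -0.26 to 0.01), and Pol2Ser5 at chr20:36155250-36157986 gave 546 and 339 (M -0.18, -0.37 to 0.03). TotalRNAPol2 at chr20:36155780-36158013 gave 515 and 316 (M -0.36, -0.57 to -0.15), and RAD21 at chr20:36155780-36156990 gave 80 and 104 (M -0.64, -1.08 to -0.21).

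Set side by side, the M of the CTCF region with the largest size of M among the dense regions of each locus fell in the order GRB10 (6.24), DLK1-MEG3 (3.89), GNAS (2.51), NNAT (1.05), PLAGL1 (0.92), SGCE-PEG10 (0.82) and MEST (-0.21). Each was picked as the largest from 12, 7, 12, 2, 7, 1 and 2 dense CTCF regions, in the same order, so the values do not rank the loci. Their intervals cover counting error and not that choice. At the first 3 loci RAD21 and SMC1 exceeded 2-fold at the same place, and the other CTCF region of highest density in the same window had an M of 0.27, -0.16 and -0.02 in the same order. Polymerase did not share that order: TotalRNAPol2 at the 3 places had M of 1.11 at GRB10, 1.98 at DLK1-MEG3 and 3.23 at GNAS. Across the 7 loci the median M of flanking regions called in both lines ran from -0.31 to 0.23 for CTCF and from -0.25 to 0.26 for TotalRNAPol2.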

How the data were processed

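ChIP-seq libraries of HCT116 and DKO cells were grouped by their titles, with 1 library per line and target, and the members and lists were chosen with earlier results of these data known. Reads were mapped with BWA to hg19 and peaks were called with MACS2, per the submitters' processing notes, which do not name MACS2 for TotalRNAPol2. The normalization tool is not given in the sources used here. The deposited tables give, per the file headers, a normalized read density (signal) for each line, and M and A, the log2 ratio and the log2 mean of the 2 densities. Regions are those called by the authors in DKO, in HCT116 or in both.

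Reads were recovered from M and A by solving for the counting window and for the line that relates M to the raw log2 ratio. All values came out whole within 0.05 (100% in each of the 7 tables), with 1 added to each read count. That line was steep on A for Pol2Ser2 (slope 0.33) and TotalRNAPol2 (0.32), whereas the remaining slopes lay from -0.13 to 0.06. The recovery was tested on simulated data. Regions were taken as members at 1 bp of overlap, and called at 2-fold (M of at least 1 or at most -1). Per locus and target, the region of highest density was named. The region of largest size of M among those at or above the median density of its table was also named. The longest overlaps of these in other targets were added (165 regions). Density in these rules is the higher of the 2 lines. Other regions named were picked after their values were seen. Exact 95% Clopper-Pearson intervals were computed with SciPy 1.17.1 under Python 3.11.15, and they cover counting error only. No test was made, since no target had a second library per line. Alternatives tried were 4 other centrings of M, 1 region per counting window, denser regions, regions called in both lines, and midpoints inside the window. Counts over other imprinted genes and marker genes, which need gene positions in hg19, were not analysed here.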

Additional observations from a re-analysis of the deposited data

How the results depend on the processing

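Counts of regions past 2-fold depended on the scale and on which regions were kept, and the cause was not tested beyond what each setting removes. Except for the cut on density, whole-table shares under these settings are not given, so the counts are not a comparison with the table. With M recentred on the median of all regions (which shifts CTCF by -0.26, RAD21 by -0.14, SMC1 by -0.16, Pol2Ser2 by -0.17 and TotalRNAPol2 by -0.27), CTCF had 13 regions higher in DKO in place of 23, and TotalRNAPol2 12 in place of 21. Regions higher in HCT116 then numbered 2 for SMC1 in place of 1, 17 for Pol2Ser2 in place of 11 and 6 for TotalRNAPol2 in place of 2. Recentred by chromosome, those higher in DKO were 15 for CTCF, 12 for RAD21 (19 as deposited) and 13 for TotalRNAPol2, and those higher in HCT116 were 7 for RAD21 (4 as deposited), 3 for SMC1, 19 for Pol2Ser2 and 6 for TotalRNAPol2. Under constant centring the Pol2Ser2 table shifted by -0.24 and the TotalRNAPol2 table by -0.29 at the median, and they gave 24 and 13 regions higher in HCT116, with 1 for CTCF (4 as deposited) and 2 for RAD21.

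With 1 region per counting window, fewer regions remained by construction: 7 H3K27Ac regions higher in HCT116 (13 as deposited), 7 Pol2Ser5 regions higher in DKO (14 as deposited), 14 Pol2Ser2 regions higher in DKO (25 as deposited) and 5 in HCT116, and 11 TotalRNAPol2 regions higher in DKO. When only regions of at least median density in their denser line were kept, 9 CTCF and 10 RAD21 regions were higher in DKO. Under the same cut 0 SMC1, 6 H3K27Ac, 1 Pol2Ser5 (15 as deposited), 4 Pol2Ser2 and 0 TotalRNAPol2 regions were higher in HCT116. Among regions called in both lines, those higher in DKO were 3 for CTCF, 3 for RAD21, 3 for SMC1 (9 as deposited), 0 for H3K27Ac (4 as deposited), 1 for Pol2Ser5, 3 for Pol2Ser2 and 2 for TotalRNAPol2. Those higher in HCT116 were 2 for RAD21 and 0 each for SMC1, H3K27Ac, Pol2Ser5, Pol2Ser2 and TotalRNAPol2.

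Of the 165 regions given by the naming rule, 52 were past 2-fold as deposited, 39 of these stayed so under all 4 other centrings, 13 did not, and no called region changed sign. The CTCF region of GRB10 kept an M of at least 5.98, that of DLK1-MEG3 of at least 3.57 and that of GNAS of at least 2.01. No paired analysis was possible because each line had 1 library per target. At the depth of Pol2Ser2, where the median member region held 22 DKO reads and 29 HCT116 reads, several 2-fold differences had intervals that come near or include 0.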

Other observations

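Beside the regions already described, RAD21 had further regions higher in DKO at GRB10, away from the CTCF lead region. At chr7:50658360-50658665 it gave 41 DKO reads and 5 HCT116 reads (M 2.22, 1.11 to 4.15), and at chr7:50708571-50708892 it gave 47 and 11 (M 1.49, 0.62 to 2.68). A small CTCF region beside the GRB10 lead region, chr7:50851398-50851698, gave 36 and 4 reads (M 2.58, 1.38 to 4.82). At DLK1-MEG3, CTCF at chr14:101239638-101240069 gave 59 and 12 reads (M 1.99, 1.17 to 3.12), and RAD21 overlapping it gave 65 and 21 (M 1.16, 0.48 to 1.99). These were picked after their values were seen and are given as values only.

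Within the SGCE-PEG10 window a further H3K27Ac region, chr7:94250320-94250723, gave 49 DKO reads and 21 HCT116 reads (M 1.51, 0.78 to 2.36), opposite in direction to the pair at the start of the window. Near the end of the GNAS window Pol2Ser2 was higher in HCT116 at chr20:57486113-57486301, with 27 and 94 reads (M -1.37, -2.08 to -0.77).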
